A study of Mus musculus with 7 samples.

Results

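The cell cycle and DNA replication genes described here are 34 genes of S phase, G2 and mitosis, taken by symbol from a table of read counts for 24421 genes. All 34 were in the table, and all 34 passed the filter on low counts. They were measured by RNA sequencing of eosinophils, granulocytes of type 2 immunity, sorted from digested mouse muscle. The libraries are 4 from mice labelled IL5-Tg, which carry the eosinophil growth factor IL-5 as a transgene by that name, and 3 from mice labelled WT. In both groups the muscle was taken 3 days after ntx, a term that the labels leave unexplained, and the series' design text calls the muscles damaged. Cells of both groups were gated as CD45-positive, SiglecF-positive and negative for NK1, Ly6G and CD3e. The sources used here do not give the strain, age and sex of the mice, the promoter of the transgene or whether each library came from 1 mouse or several. A p-value therefore measures only the spread between libraries, which may be technical.

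A dividing cell copies its DNA in S phase and separates the copies in mitosis. The Mcm proteins form the helicase that opens DNA, Pcna is the ring that holds polymerases on it, and cyclins switch on the kinases that start each phase. Cyclin B with Cdk1, the Aurora and Polo kinases and the kinesin motors then build the spindle, and the anaphase promoting complex ends mitosis. Mature eosinophils are non-dividing cells whose precursors divide in bone marrow, whereas fibroblasts, macrophages and muscle progenitors can divide in damaged muscle. Because sequencing of sorted cells does not separate their RNA, the levels are set beside Col1a1, a collagen gene of fibroblasts, and C1qa, a complement gene of macrophages. In such bulk samples fewer cells of a type and less RNA per cell cannot be told apart.

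Total counts were 11581365 to 20231509 per library, including reads that named no gene. Levels are in CPM, counts scaled to the gene reads of the library with a scaling factor named below. Il5 was at 338 to 447 CPM in IL5-Tg libraries and at 0 to 1.39 CPM in WT libraries. All 6 eosinophil markers had reads in each library, and their sum was 1675 to 3188 CPM in IL5-Tg and 1085 to 2382 CPM in WT. Of these, Prg2 and Ear6 were called higher in IL5-Tg (adjusted p = 0.016 and 0.0268 by edgeR), at 423 to 1122 and 17.7 to 33.9 CPM in IL5-Tg, against 104 to 144 and 1.04 to 4.53 CPM in WT, while Siglecf, Ccr3, Epx and Il5ra did not pass. The 7 neutrophil markers, of which 4 were tested, summed to 41.01 to 55.7 CPM in IL5-Tg, against 330.0, 109 and 9.54 CPM in WT replicates 1, 2 and 3. Among them Ngp was called higher in IL5-Tg (adjusted p = 0.00311 by edgeR), at 26.3 to 33.5 CPM, against 0 to 0.362 CPM in WT, while S100a8 and S100a9 did not pass, at 4.77 to 10.8 CPM in IL5-Tg and 2.36 to 170.5 CPM in WT. In a fit without WT replicate 3, S100a8 and S100a9 were called lower in IL5-Tg (adjusted p = 0.000317 and 0.00126 by edgeR). Epx was called higher in that fit (adjusted p = 0.0229 by edgeR), and Prg2, Ear6 and Ngp were called higher again. The part of these differences in the members' levels was not tested. WT replicate 3 stood apart from the other 6 libraries. The 8 fibroblast markers summed to 1888 to 4669 CPM in IL5-Tg libraries, against 2822 and 3145 CPM in WT replicates 1 and 2 and 16.2 CPM in WT replicate 3, where Lum and Pdgfra had 0 reads. The 5 muscle progenitor markers summed to 83.8 to 370.3 CPM in IL5-Tg, against 131 and 273 CPM in WT replicates 1 and 2 and 2.65 CPM in WT replicate 3, with Pax7, Myod1, Myf5 and Myog at 0 there. The 9 macrophage and monocyte markers summed to 4811 to 5749 CPM in IL5-Tg, against 3622 and 5190.0 CPM in WT replicates 1 and 2 and 3797 CPM in WT replicate 3, with none at 0. Within that list 5 of the 9 genes, C1qa, C1qb, C1qc, Cd68 and Mrc1, were lowest in WT replicate 3. Csf1r, Ly6c2 and Ccr2 lay within the range of the other libraries there. Adgre1, which eosinophils also express, was highest there at 2458 CPM. Genes detected numbered 13641 to 14391 in IL5-Tg, against 12759 and 13813 in WT replicates 1 and 2 and 10877 in WT replicate 3. The single low count held by most genes was 1 to 4 reads in IL5-Tg libraries, against 5 and 10 reads in WT replicates 1 and 2 and 13 reads in WT replicate 3, so single reads there cannot be taken as separate molecules.

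Promoters of these genes are shown as a sequence feature that the choice of the genes did not use, and the roles differ in the regulatory letters they carry. Whether these letters bear on the levels in any library was not tested. The letters searched, on either strand, were TTTGAA for the cell cycle genes homology region (CHR), CCAAT for the box bound by NF-Y, and TTGGCGC with its variants for E2F, which were TTCCCGC as well as TTCGCGC as well as TTGCCGC. RefSeq promoters (GRCm38.p6), 250 bases before to 50 bases after each start, matched 28 of the 34 genes, and Mcm7 had 2, giving 29 promoters. The genes without one in the table were Aurkb, Ccna2, Ccne2, Kif20a, Mcm4 and Tpx2. CHR letters were in 14 of the 29 promoters (48.3%), against 17.9% of the 32851 promoters in the table. They were in 13 of 19 promoters of the mitotic, cyclin and marker genes but in 1 of 10 promoters of the helicase, clamp and nucleotide genes, that of Mcm2. E2F letters showed the opposite division, with 6 of 10 promoters of the helicase, clamp and nucleotide genes, 3 of 19 of the others and 9.57% of all promoters. CCAAT letters were in 24 of 29 member promoters and in 37.4% of all promoters. Every member promoter with CHR letters also held CCAAT, 14 of 29, against 6.95% of all promoters with both. A match is a match of letters and does not show that a factor binds there.

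Top2a and Ube2c held the most CHR and CCAAT matches added together of the mitotic genes, and Mcm6 the most E2F matches of the replication genes. Capitals mark CHR and CCAAT letters in the first pair and E2F letters in Mcm6, each sequence running 5′ to 3′ on the gene's own strand. In Ube2c a pair of CCAAT matches on opposite strands overlaps, and in Mcm6 4 of the 5 E2F matches overlap in pairs. The Top2a window is chr11:99024140-99024439 on the minus strand, with CHR letters at -179 and -23 from the start. The Ube2c window is chr2:164769679-164769978 on the plus strand, with CHR letters at -29. The Mcm6 window is chr1:128359656-128359955 on the minus strand.
Top2a: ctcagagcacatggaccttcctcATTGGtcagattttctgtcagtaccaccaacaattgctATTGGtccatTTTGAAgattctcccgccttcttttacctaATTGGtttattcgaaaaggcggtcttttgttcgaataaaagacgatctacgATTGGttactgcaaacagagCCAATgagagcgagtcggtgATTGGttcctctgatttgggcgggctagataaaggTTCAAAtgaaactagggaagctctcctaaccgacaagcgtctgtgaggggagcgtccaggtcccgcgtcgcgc
Ube2c: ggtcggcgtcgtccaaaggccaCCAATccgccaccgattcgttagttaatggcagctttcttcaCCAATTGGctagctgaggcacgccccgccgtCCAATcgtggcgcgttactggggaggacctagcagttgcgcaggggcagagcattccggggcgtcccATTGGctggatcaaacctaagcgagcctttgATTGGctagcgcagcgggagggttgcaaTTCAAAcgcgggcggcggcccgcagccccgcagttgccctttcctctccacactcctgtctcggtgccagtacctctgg
Mcm6: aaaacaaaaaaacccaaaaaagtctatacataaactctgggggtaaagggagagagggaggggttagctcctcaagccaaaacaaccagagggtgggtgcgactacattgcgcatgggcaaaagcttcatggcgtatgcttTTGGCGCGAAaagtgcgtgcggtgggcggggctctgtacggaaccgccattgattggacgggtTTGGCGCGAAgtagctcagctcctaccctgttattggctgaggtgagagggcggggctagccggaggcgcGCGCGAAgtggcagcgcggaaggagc

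**Figure D1:**
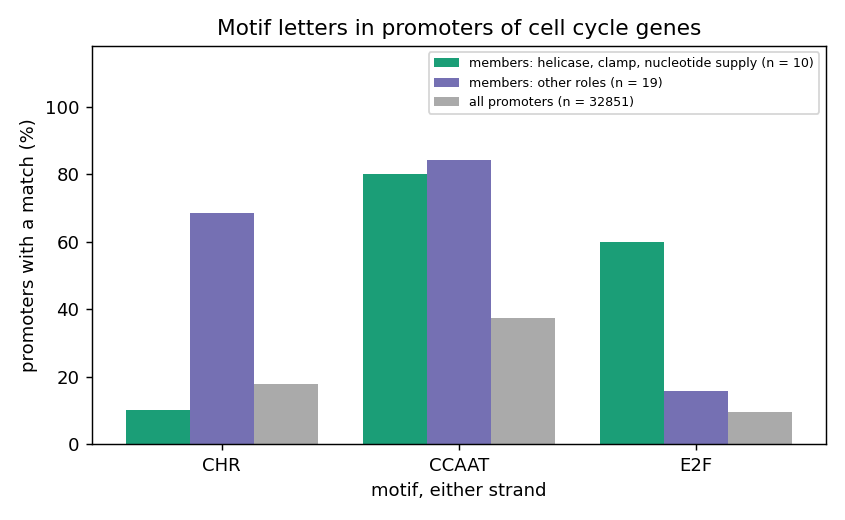
Percent of promoters with a match to each motif on either strand, for 10 promoters of helicase, clamp and nucleotide supply members, 19 promoters of members in other roles and 32851 promoters in the table. CHR letters were in 68.4% of the promoters of other roles and 10% of the replication promoters, and E2F letters in 15.8% and 60% of them.

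The summed level of the 34 genes was 1133, 701, 1233 and 1359 CPM in the IL5-Tg libraries, against 882, 1168 and 336 CPM in the WT libraries. The groups overlapped, and WT replicate 3 alone lay below all other libraries. The 34 genes together took 0.0639% to 0.150% of gene reads in IL5-Tg and 0.0307% to 0.115% in WT. Col1a1 was at 1101, 573, 555 and 1089 CPM in the IL5-Tg libraries, against 499.6, 751 and 4.82 CPM in the WT libraries. C1qa was at 584, 349.5, 776 and 601 CPM in the IL5-Tg libraries, against 373, 673 and 68.4 CPM in the WT libraries. Both markers were lowest in WT replicate 3, as the members were. Per CPM of Col1a1 the summed member level was 1.03, 1.22, 2.22 and 1.25 in the IL5-Tg libraries, against 1.77, 1.56 and 69.8 in the WT libraries. Per CPM of C1qa it was 1.94, 2.005, 1.59 and 2.26 in the IL5-Tg libraries, against 2.36, 1.74 and 4.91 in the WT libraries. The ratio to C1qa thus stayed between 1.59 and 2.36 in 6 libraries, while the ratio to Col1a1 spanned 1.03 to 2.22 in the same libraries. The ratio of 4.91 in WT replicate 3 rests in part on Pcna, Cenpa and Kif23, picked after their values were seen. Without them the ratio to C1qa was 1.70, 1.63, 1.39 and 1.91 in the IL5-Tg libraries, against 1.82, 1.5 and 2.36 in the WT libraries. Of the 34 genes, 16 had a lower log2 ratio of WT replicate 3 to the median of the other libraries than C1qa, and 0 a lower one than Col1a1. All 16 had 39 reads or fewer there, a limit described below, so how far they fell is not known. The 0.5 CPM added to both levels also bounds how low the ratio of a weakly expressed gene can be. These counts therefore do not rank the members against the markers. The part of other cells' RNA in the members' levels was not tested.

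**Figure D2:**
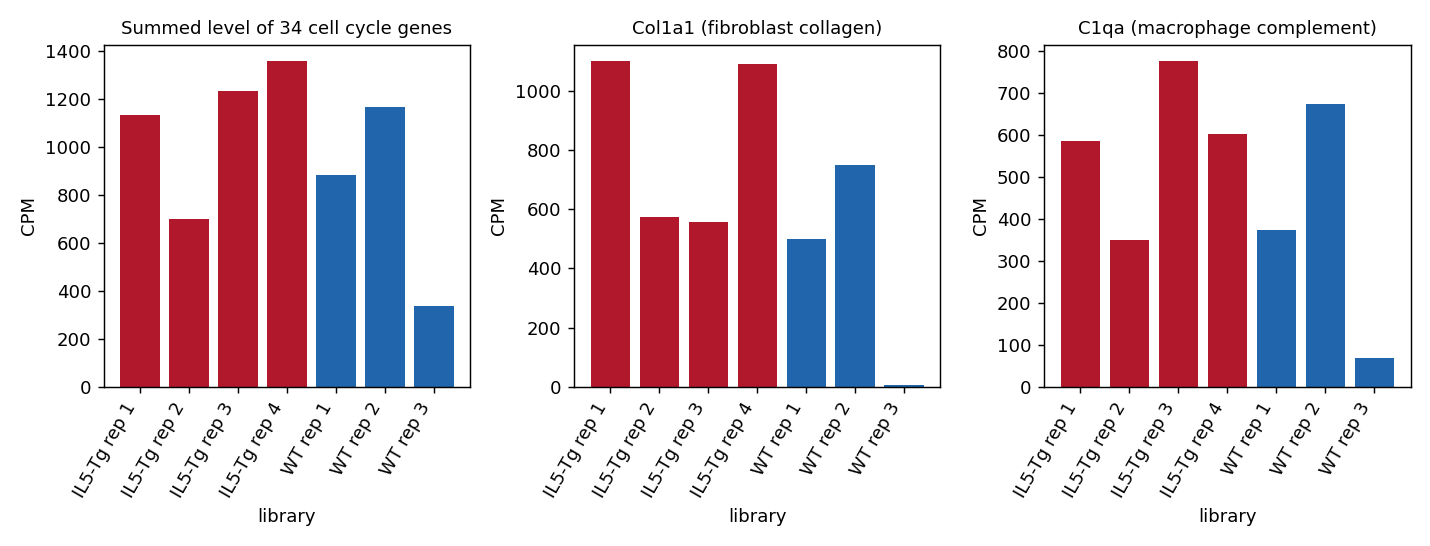
Summed level of the 34 genes, Col1a1 and C1qa in each library (CPM), 1 bar per library, IL5-Tg in red and WT in blue. WT replicate 3 is lowest in all 3 panels, at 336, 4.82 and 68.4 CPM.

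Across all genes, edgeR's quasi-likelihood test called 0.338% of 12428 genes higher in IL5-Tg and 0.0724% lower at an adjusted p under 0.05. Among the 34 cell cycle genes it called 0 higher and 0 lower. Aurka alone had an unadjusted p under 0.05, against 3.49% of all genes on the higher and 5.54% on the lower side. DESeq2 called 1.02% of genes higher and 0.555% lower, with 0 of the members among them and 2 members at an unadjusted p under 0.05. The log2 fold changes of IL5-Tg over WT were positive for 31 of 34 genes, against 52.1% of all tested genes, with a median of 0.61 against 0.026 over all tested genes. Without WT replicate 3 the fold changes were positive for 20 of 34, against 48.9% of all genes, with a median of 0.19. Without WT replicate 2, one of the higher WT libraries for these genes, the median was 1.29. With the level of fibroblast and macrophage markers as a covariate it was -0.07, against -0.07 over all genes in that fit, with 16 of 34 positive. The fibroblast markers in it summed to 16.2 CPM in WT replicate 3, against 1888 CPM or more in every other library. That fit therefore cannot tell other cells' RNA from any other trait of WT replicate 3. Every one of these fits called 0 members, and the fit without WT replicate 3 called 0.612% of all genes higher and 0.139% lower.

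**Figure D3:**
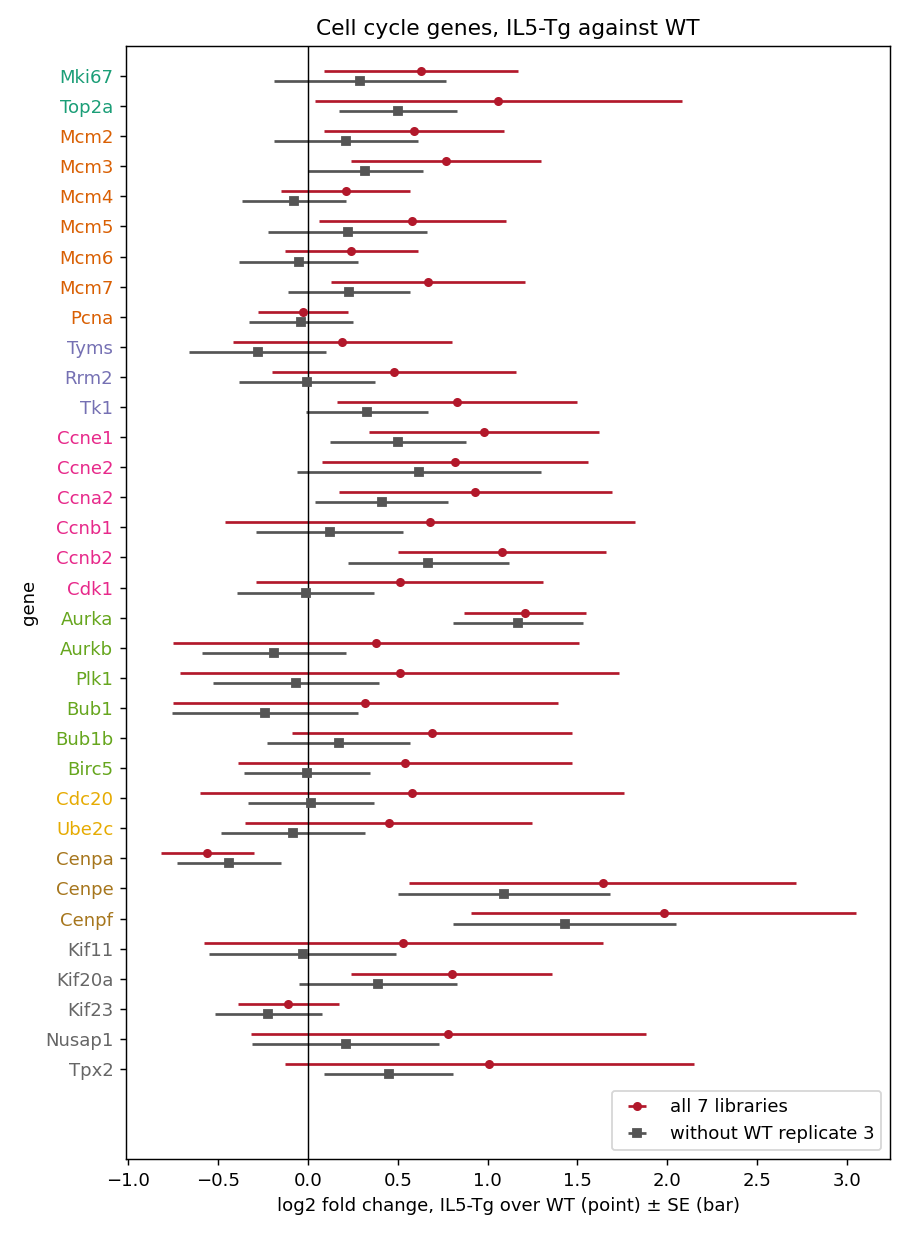
Log2 fold change of IL5-Tg over WT for each gene, with its standard error, from all 7 libraries (red circles) and without WT replicate 3 (grey squares). Most points lie nearer 0 in the fit without that library, where the median is 0.19 against 0.61, and Aurka keeps nearly the same value.

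The level in WT replicate 3 was the lowest of the 7 libraries for 30 of the 34 genes, against 34.3% of all tested genes. For 25 of the 34 it was more than 4 times below the median of the other 6 libraries (with 0.5 CPM added to both), against 15.4% of all tested genes. It had 0 reads for 10 members, against 15.6% of all tested genes, and no other library had 0 reads for any member. Those 10 were Ccnb1, Aurkb, Plk1, Bub1, Cdc20, Cenpe, Cenpf, Kif11, Nusap1 and Tpx2, all genes of G2 and mitosis. A count of 0 there allows up to 0.283 CPM by 3 reads, or 3.68 CPM by 3 times the most common low count of 13 reads, limits that cover counting error only. For 6 of the 10 every other library lay above the higher limit, while for Bub1, Cenpe, Cenpf and Kif11 some libraries did not, so a difference for these 4 was not detectable at this depth. In all, 21 members had 39 reads or fewer in WT replicate 3, the count behind that higher limit, against 2 members at or under the matching count of 30 reads in WT replicate 2 and 0 in every other library. With WT replicate 3 put up to that limit wherever it was lower, a setting chosen after the data were seen, 26 of the 34 genes were still lowest there, against 21.3% of all tested genes, and 17 were still more than 4 times below, against 3.85%. The 7 helicase and clamp genes all lay above the limit, and their median log2 ratio of WT replicate 3 to the other libraries was -1.83, against -0.20 for all tested genes. At or under the limit were 6 of 6 cyclins and Cdk1, 5 of 6 mitotic kinase and checkpoint genes and both anaphase genes. For these genes a ratio gives only how low the level could be, and the roles were not ranked by it. At the other end of the range, IL5-Tg replicate 4 was the highest library for 21 of 34 members, against 10.9% of all tested genes.

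**Figure D4:**
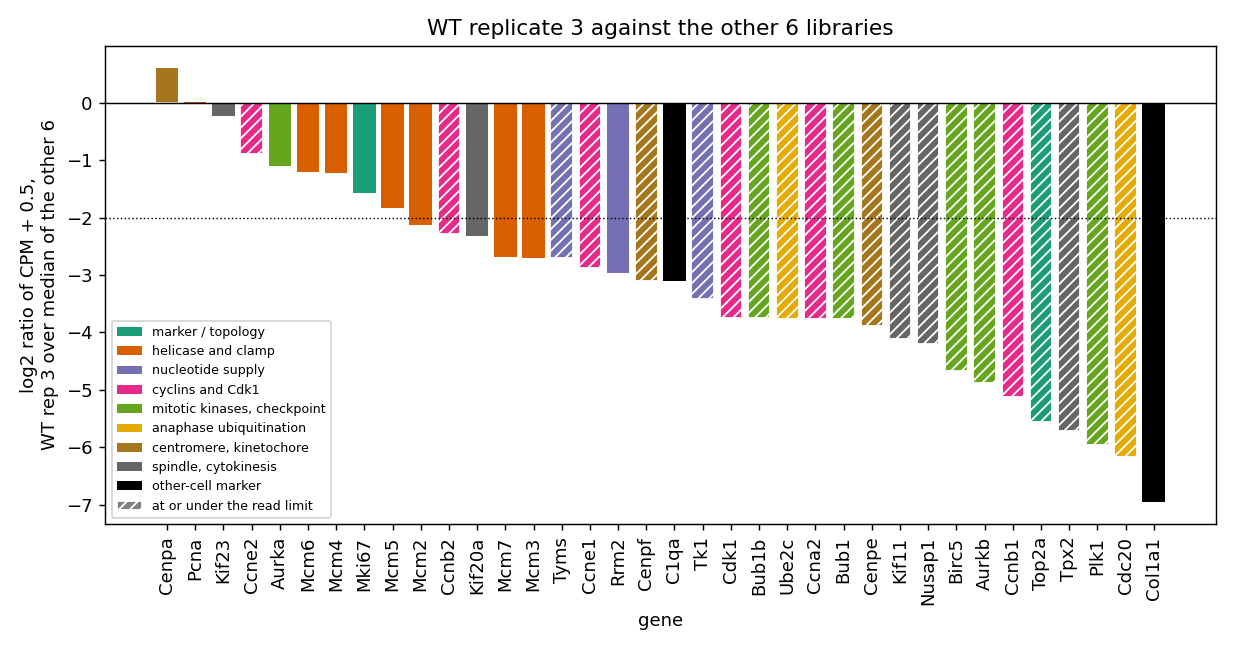
Log2 ratio of WT replicate 3 to the median of the other 6 libraries (CPM + 0.5) for each member, coloured by role, with Col1a1 and C1qa in black and a dotted line at 4 times lower. Cenpa, Pcna and Kif23 are near or above 0, and 25 of 34 members lie below the dotted line. Hatched bars are the 21 members at 39 reads or fewer in WT replicate 3, whose length depends on the 0.5 CPM added.

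Mki67, the antigen used to mark cycling cells, and Top2a, the topoisomerase that untangles sister chromatids, overlapped between the groups. Mki67 (chromosome 7, 135689784 to 135716361, minus strand, mm10, GENCODE vM21) had 24.3, 9.76, 34.5 and 48.5 CPM in the IL5-Tg libraries, against 26.0, 22.7 and 8.12 CPM in the WT libraries, listed here and below in replicate order. Its means were 29.3 ± 16.3 CPM in IL5-Tg (SD, n = 4) and 18.9 ± 9.51 CPM in WT (SD, n = 3), which put it at 0.63 ± 0.54 (SE) as log2 of IL5-Tg over WT (adjusted p = 0.845 by edgeR). IL5-Tg replicate 2 held about as little Mki67 as WT replicate 3. Top2a (chromosome 11, 98992943 to 99024189, minus strand) had 45.1, 31.1, 46.0 and 71.2 CPM in the IL5-Tg libraries, against 32.8, 36.5 and 0.378 CPM in the WT libraries, which put it at 1.06 ± 1.02 (SE) as log2 of IL5-Tg over WT (adjusted p = 0.87 by edgeR). The value of Top2a in WT replicate 3 rests on 4 reads, under the limit of 39, whereas Mki67 was at 32.3% of the median of the other 6 libraries there, on 86 reads. Without that library the log2 fold changes of Top2a and Mki67 were 0.50 and 0.29.

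Pcna, Mcm5, Mcm6 and Mcm3 had the highest mean levels per length of the 34 genes in both groups. Mean levels per kilobase of merged exons were 40.4 CPM in IL5-Tg and 41.2 CPM in WT for Pcna, and 24.5 and 16.4 CPM for Mcm5, while Cenpf, the lowest, had 0.402 and 0.101 CPM. Pcna had 87.0, 75.8, 98.3 and 127 CPM in the IL5-Tg libraries, against 119, 83.8 and 93.7 CPM in the WT libraries, and the groups overlapped throughout. Its means were 97.0 ± 22.1 CPM in IL5-Tg (SD, n = 4) and 98.9 ± 18.3 CPM in WT (SD, n = 3), which put it at -0.03 ± 0.25 (SE) as log2 of IL5-Tg over WT (adjusted p = 0.987 by edgeR). In WT replicate 3, where Col1a1 was at 4.82 CPM, Pcna was at 101% of the median of the other libraries, on 992 reads. Mcm6 had 101, 63.5, 127 and 105 CPM in the IL5-Tg libraries, against 75.2, 132 and 44.4 CPM in the WT libraries, which put it at 0.24 ± 0.37 (SE) as log2 of IL5-Tg over WT (adjusted p = 0.924 by edgeR). Its sign turned without WT replicate 3, to -0.05.

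The other Mcm genes encode the remaining subunits of the same ring-shaped helicase. Mcm5 had 106, 55.3, 137 and 93.2 CPM in the IL5-Tg libraries, against 40.0, 129 and 27.6 CPM in the WT libraries. Mcm3 had 73.0, 58.0, 93.3 and 72.1 CPM in the IL5-Tg libraries, against 42.3, 77.7 and 10.8 CPM in the WT libraries. Mcm7 had 84.5, 52.2, 80.3 and 78.5 CPM in the IL5-Tg libraries, against 39.9, 87.6 and 12.0 CPM in the WT libraries. For Mcm5 and Mcm3 WT replicate 2 lay among the IL5-Tg libraries and for Mcm7 above them, while WT replicate 1 lay below all 4 of them. Mcm2 had 56.6, 32.3, 55.6 and 55.5 CPM in the IL5-Tg libraries, against 22.7, 64.7 and 12.3 CPM in the WT libraries. Mcm4 had 32.9, 25.7, 37.4 and 35.8 CPM in the IL5-Tg libraries, against 42.4, 28.2 and 14.4 CPM in the WT libraries, with WT replicate 1 the highest of all. All 6 Mcm genes were lowest in WT replicate 3, at 14.8% (Mcm3) to 43.1% (Mcm6) of the median of the other libraries, and each still had 114 reads or more there. The log2 fold changes of the 7 genes of this role ran from -0.03 to 0.77, and without WT replicate 3 from -0.08 to 0.32.

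The 3 genes of nucleotide supply make or salvage deoxynucleotides. Rrm2, the small subunit of ribonucleotide reductase, had 36.3, 18.8, 30.7 and 58.6 CPM in the IL5-Tg libraries, against 39.8, 33.6 and 4.06 CPM in the WT libraries, which put it at 0.48 ± 0.68 (SE) as log2 of IL5-Tg over WT (adjusted p = 0.917 by edgeR). Tk1, the thymidine kinase of S phase, had 39.2, 21.3, 43.5 and 34.8 CPM in the IL5-Tg libraries, against 22.1, 33.8 and 2.74 CPM in the WT libraries, which put it at 0.83 ± 0.67 (SE) as log2 of IL5-Tg over WT (adjusted p = 0.826 by edgeR). Tyms, thymidylate synthase, had 17.1, 8.53, 21.7 and 21.8 CPM in the IL5-Tg libraries, against 21.7, 20.9 and 2.83 CPM in the WT libraries. In all 3 the groups overlapped, with WT replicates 1 and 2 inside the range of the IL5-Tg libraries and WT replicate 3 lowest. Their summed level was 92.7, 48.6, 95.9 and 115 CPM in the IL5-Tg libraries, against 83.7, 88.3 and 9.64 CPM in the WT libraries. In WT replicate 3 Tk1 and Tyms rested on 29 and 30 reads.

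Among the cyclins, Ccne1, which with Cdk2 opens S phase, had groups that did not overlap. It was at 10.4, 9.83, 12.7 and 12.4 CPM in the IL5-Tg libraries, against 6.82, 9.49 and 0.945 CPM in the WT libraries. Its means were 11.3 ± 1.46 CPM in IL5-Tg (SD, n = 4) and 5.75 ± 4.37 CPM in WT (SD, n = 3), which put it at 0.98 ± 0.64 (SE) as log2 of IL5-Tg over WT (adjusted p = 0.754 by edgeR), and 0.50 without WT replicate 3. The nearest libraries, IL5-Tg replicate 2 and WT replicate 2, lay at 9.83 and 9.49 CPM, on 128 and 90 reads. With a most common low count of 10 reads in WT replicate 2, that gap was within counting error. Ccne1 was named after its values were seen, as 1 of 3 members, with Aurka and Cenpf, whose 4 IL5-Tg libraries all lay above the 3 WT libraries, against 4.76% of all tested genes. No member lay wholly below, against 4.60% of all tested genes. For Cenpf the lowest IL5-Tg level, 3.28 CPM, was under the 3.68 CPM that 0 reads allow in WT replicate 3, so its separation was not detectable at this depth. The same 3 genes were separated without WT replicate 3, against 7.84% of all tested genes, and again none lay wholly below, against 8.93%.

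Ccna2, the cyclin of S phase and G2, had 29.6, 18.9, 30.9 and 50.6 CPM in the IL5-Tg libraries, against 26.7, 22.8 and 1.61 CPM in the WT libraries, which put it at 0.93 ± 0.76 (SE) as log2 of IL5-Tg over WT (adjusted p = 0.8287 by edgeR). Cdk1, the kinase that starts mitosis, had 22.3, 12.6, 23.2 and 34.6 CPM in the IL5-Tg libraries, against 28.4, 19.1 and 1.23 CPM in the WT libraries, which put it at 0.51 ± 0.80 (SE) as log2 of IL5-Tg over WT (adjusted p = 0.925 by edgeR). Both overlapped between the groups, and Cdk1 was at -0.01 without WT replicate 3. Ccnb1, a partner of Cdk1 (chromosome 13, 100778650 to 100786570, minus strand), had 22.6, 7.76, 17.4 and 16.8 CPM in the IL5-Tg libraries, against 12.9, 17.2 and 0 CPM in the WT libraries. Ccnb2, its relative, had 16.7, 7.45, 23.7 and 24.0 CPM in the IL5-Tg libraries, against 12.2, 10.7 and 2.55 CPM in the WT libraries. Ccnb2 was above WT replicates 1 and 2 in 3 of the 4 IL5-Tg libraries. Ccne2 was the least abundant cyclin per length, with 3.46, 1.46, 5.68 and 6.02 CPM in the IL5-Tg libraries, against 2.11, 3.38 and 1.61 CPM in the WT libraries, on 17 reads in WT replicate 3.

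Of the mitotic kinases, Aurka, which matures centrosomes and the spindle (chromosome 2, 172356190 to 172370535, minus strand), was the one gene whose groups did not overlap. It was at 16.7, 12.7, 16.02 and 19.1 CPM in the IL5-Tg libraries, against 6.70, 7.81 and 6.42 CPM in the WT libraries. Its means were 16.1 ± 2.64 CPM in IL5-Tg (SD, n = 4) and 6.98 ± 0.732 CPM in WT (SD, n = 3), which put it at 1.21 ± 0.34 (SE) as log2 of IL5-Tg over WT (adjusted p = 0.246 by edgeR), the smallest adjusted p among the 34 genes. The unadjusted edgeR p was 0.00472. Over the other settings its adjusted p was 0.0689 to 0.945, highest in the fit with a block for the number of titles. Its log2 fold change was 1.10 to 1.32, so the direction held while the test over all genes was not passed. The WT libraries held 111, 74 and 68 reads. WT replicate 3 was close to the other WT libraries and was the lowest of all, at 44.8% of the median of the other 6. With most common low counts of 5, 10 and 13 reads in the WT libraries, how close they lie to each other is uncertain. Col1a1 and C1qa overlapped between the groups in the same libraries. The part of other cells' RNA in the Aurka difference was not tested.

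The other genes of this role did not separate. Birc5, the survivin subunit of the chromosomal passenger complex, had 36.7, 16.4, 24.0 and 37.9 CPM in the IL5-Tg libraries, against 29.4, 29.0 and 0.661 CPM in the WT libraries, which put it at 0.54 ± 0.93 (SE) as log2 of IL5-Tg over WT (adjusted p = 0.932 by edgeR). Plk1, the Polo kinase of mitotic entry, had 34.6, 16.5, 26.4 and 36.0 CPM in the IL5-Tg libraries, against 13.3, 46.7 and 0 CPM in the WT libraries, which put it at 0.51 ± 1.22 (SE) as log2 of IL5-Tg over WT (adjusted p = 0.954 by edgeR). Plk1 was highest of all in WT replicate 2 and had no read in WT replicate 3, so its standard error was wide, and without WT replicate 3 its log2 fold change was -0.07. Aurkb, the kinase subunit of the passenger complex, had 14.3, 6.91, 18.4 and 14.1 CPM in the IL5-Tg libraries, against 13.9, 16.99 and 0 CPM in the WT libraries. Bub1b, a checkpoint protein that holds back anaphase, had 22.8, 9.30, 19.1 and 25.1 CPM in the IL5-Tg libraries, against 15.6, 18.9 and 0.945 CPM in the WT libraries. Bub1, its checkpoint partner, had 3.18, 3.23, 7.06 and 7.47 CPM in the IL5-Tg libraries, against 5.73, 6.86 and 0 CPM in the WT libraries. In each of these 3 genes WT replicates 1 and 2 lay within the range of the IL5-Tg libraries.

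Cdc20, the activator of the anaphase promoting complex, and Ube2c, the ubiquitin conjugating enzyme that works with it, gave like patterns. Cdc20 had 40.5, 18.2, 35.3 and 35.4 CPM in the IL5-Tg libraries, against 25.2, 39.6 and 0 CPM in the WT libraries, which put it at 0.58 ± 1.18 (SE) as log2 of IL5-Tg over WT (adjusted p = 0.942 by edgeR). Ube2c had 22.8, 9.37, 23.2 and 30.1 CPM in the IL5-Tg libraries, against 22.1, 23.7 and 1.23 CPM in the WT libraries, which put it at 0.45 ± 0.80 (SE) as log2 of IL5-Tg over WT (adjusted p = 0.936 by edgeR). WT replicates 1 and 2 lay inside the IL5-Tg range for both, and the log2 fold changes without WT replicate 3 were 0.01 for Cdc20 and -0.08 for Ube2c. The promoters of both held CHR and CCAAT letters.

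The centromere genes differed from each other in their order of libraries. Cenpa, the histone variant that marks centromeres (chromosome 5, 30666777 to 30674830, plus strand), had 27.7, 33.0, 30.5 and 46.9 CPM in the IL5-Tg libraries, against 53.3, 42.1 and 57.8 CPM in the WT libraries. Its highest library was WT replicate 3, on 612 reads, and it was the sole member highest there. The means were 34.5 ± 8.52 CPM in IL5-Tg (SD, n = 4) and 51.1 ± 8.09 CPM in WT (SD, n = 3), which put it at -0.56 ± 0.26 (SE) as log2 of IL5-Tg over WT (adjusted p = 0.578 by edgeR), the most negative value of the 34, and the groups overlapped only in IL5-Tg replicate 4. Cenpe, a kinesin of the kinetochore, had 7.49, 4.30, 9.47 and 13.5 CPM in the IL5-Tg libraries, against 6.34, 1.90 and 0 CPM in the WT libraries, which put it at 1.64 ± 1.08 (SE) as log2 of IL5-Tg over WT (adjusted p = 0.762 by edgeR). Cenpf, a large protein of the outer kinetochore, had 3.28, 4.30, 5.97 and 11.2 CPM in the IL5-Tg libraries, against 2.78, 1.90 and 0 CPM in the WT libraries, which put it at 1.98 ± 1.07 (SE) as log2 of IL5-Tg over WT (adjusted p = 0.668 by edgeR). Leaving out 1 library gave 1.09 to 3.20 for Cenpe and 1.43 to 2.72 for Cenpf, lowest without WT replicate 3 and highest without WT replicate 1. Cenpf had at most 46 reads in a WT library, and as its separation rests on levels under the limit of WT replicate 3, that separation was not detectable at this depth. Cenpa and Cenpf both had CHR and CCAAT letters in their promoters, while WT replicate 3 was the highest of 7 libraries for Cenpa and had 0 reads for Cenpf.

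Spindle and cytokinesis genes were likewise divided by one member. Kif23, a motor of the central spindle, had 24.6, 21.7, 24.5 and 35.9 CPM in the IL5-Tg libraries, against 30.3, 32.7 and 23.3 CPM in the WT libraries, which put it at -0.11 ± 0.28 (SE) as log2 of IL5-Tg over WT (adjusted p = 0.956 by edgeR). It was at 85.0% of the median of the other libraries in WT replicate 3, on 247 reads. Tpx2, which activates Aurka on the spindle, had 32.6, 15.3, 29.7 and 34.6 CPM in the IL5-Tg libraries, against 19.8, 21.8 and 0 CPM in the WT libraries, which put it at 1.01 ± 1.14 (SE) as log2 of IL5-Tg over WT (adjusted p = 0.894 by edgeR). Kif20a, a motor of cytokinesis, had 23.2, 12.2, 24.8 and 39.5 CPM in the IL5-Tg libraries, against 13.2, 25.3 and 4.44 CPM in the WT libraries. Kif11, the motor that pushes spindle poles apart, had 6.83, 3.15, 9.47 and 12.3 CPM in the IL5-Tg libraries, against 6.64, 9.81 and 0 CPM in the WT libraries. Nusap1, which bundles spindle microtubules, had 7.30, 3.84, 10.4 and 12.4 CPM in the IL5-Tg libraries, against 4.83, 10.02 and 0 CPM in the WT libraries. In the last 3 genes the groups overlapped and WT replicate 3 was lowest.

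**Figure D5:**
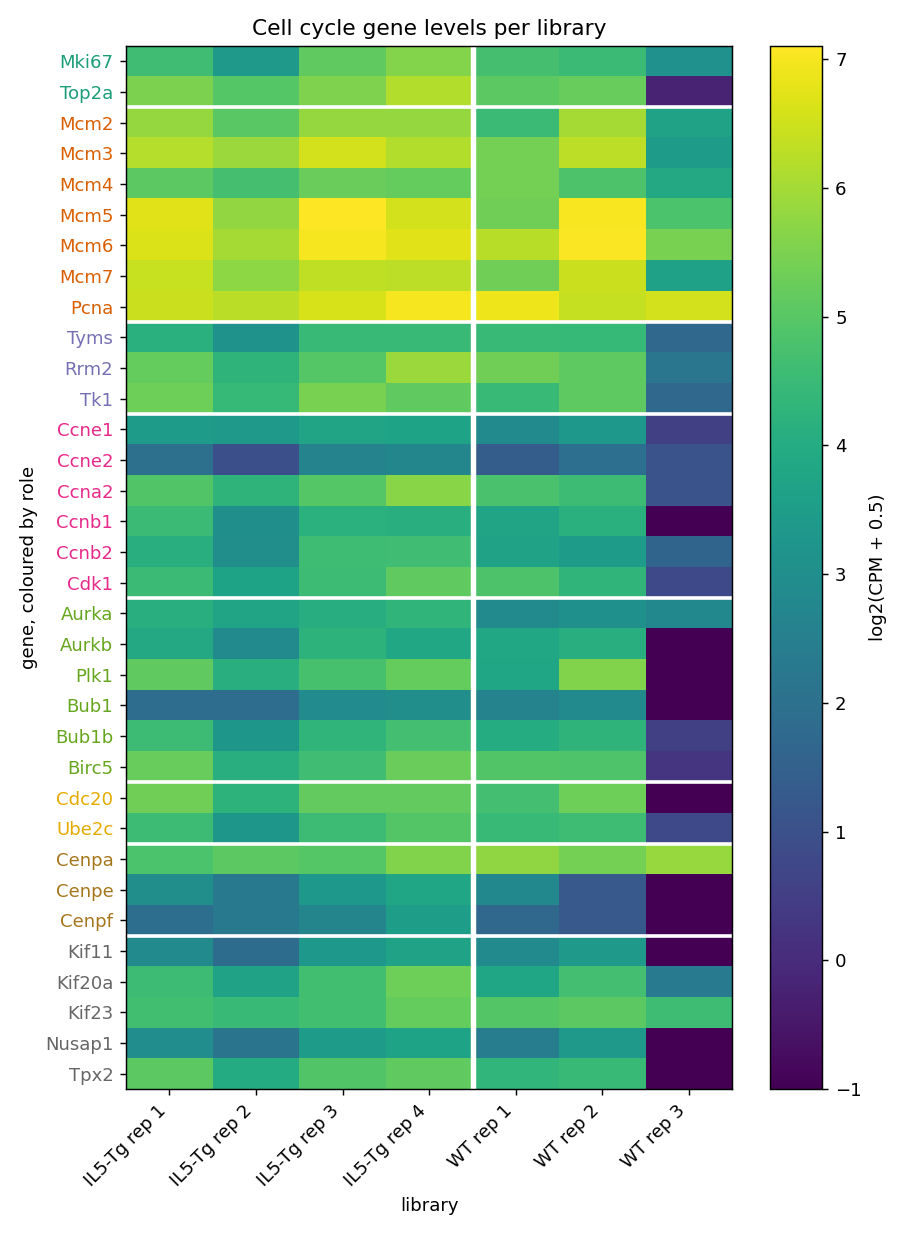
Level of each gene in each library as log2(CPM + 0.5), IL5-Tg libraries left of the white line and WT libraries right of it, gene names coloured by role. WT replicate 3 is dark for most genes, with 10 at 0 reads. It is brightest for Pcna (93.7 CPM), Cenpa (57.8 CPM), Mcm6 (44.4 CPM), Mcm5 (27.6 CPM) and Kif23 (23.3 CPM).

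The members that kept their level in WT replicate 3 were therefore Cenpa, Pcna and Kif23, at 154%, 101% and 85.0% of the median of the other 6 libraries, each on 247 reads or more. Of the other 31, the 10 with more than 39 reads there were at 11.6% to 44.8%, and for the 21 at or under 39 reads no exact share can be given. Without these 3 genes, picked after their values were seen, the summed level was 994, 570.2, 1080.0 and 1149 CPM in the IL5-Tg libraries, against 679.6, 1010.0 and 161 CPM in the WT libraries. The next highest of those above 39 reads were Aurka, Mcm6 and Mcm4, at 44.8%, 43.1% and 42.1%. For 8 members, Mcm7, Tk1, Ccne2, Ccna2, Cdc20, Ube2c, Kif20a and Nusap1, another protein-coding gene overlaps the locus on the opposite strand, and how the counting treated strand is not given here. Pcna, Tyms, Ccnb1 and Ccnb2 have annotated pseudogene copies that could share reads, so their split is uncertain.

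Genes of replication, mitosis and G1 outside the 34 gave no call in the fit of all libraries. Of 38 other replication genes, all tested, 0 were called in either direction, and their median log2 fold change was 0.31, or 0.12 without WT replicate 3. Of 37 other mitosis genes tested, 0 were called, with a median of 0.51, or 0.11 without WT replicate 3. Both groups thus moved toward 0 without that library, as the members did. WT replicate 3 had 0 reads for 4 of the 38 replication genes and 15 of the 37 mitosis genes, against 15.6% of all tested genes. Only the mitosis genes exceeded that share. Some of the genes at 0, such as Kif14, Cdc25c, Prim1 and Hells, lay under 3.68 CPM in other libraries, a level that 0 reads allow in WT replicate 3. These shares therefore depend on how highly the listed genes are expressed, and do not rank mitosis against replication genes. The mitosis gene Cks2, a small subunit bound to Cdk1, went against the positive median of its list. It was at 5.62, 6.38, 4.81 and 10.5 CPM in the IL5-Tg libraries, against 41.4, 18.6 and 22.0 CPM in the WT libraries, with no overlap. As log2 of IL5-Tg over WT it was -2.0 ± 0.41 (SE) in all libraries (adjusted p = 0.0912 by edgeR), and -2.10 without WT replicate 3, where it was called (adjusted p = 0.0329 by edgeR). Cks2 was named after its values were seen.

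Of 18 regulators of G1, the phase before replication, 0 were called with all libraries. Cdk6, the partner of D cyclins, was at 21.2, 24.0, 23.4 and 20.2 CPM in the IL5-Tg libraries, against 2.90, 0.211 and 4.44 CPM in the WT libraries, or 3.13 ± 0.70 (SE) as log2 of IL5-Tg over WT (adjusted p = 0.133 by edgeR), and 3.77 without WT replicate 3, where it was called (adjusted p = 0.0176 by edgeR). Ccnd2, one of those cyclins, was at 33.7, 33.1, 26.6 and 31.9 CPM in the IL5-Tg libraries, against 14.8, 10.7 and 8.60 CPM in the WT libraries, or 1.46 ± 0.30 (SE) as log2 of IL5-Tg over WT (adjusted p = 0.0912 by edgeR). The Cdk6 level of 0.211 CPM in WT replicate 2 lay under 3.17 CPM, 3 times the most common low count of that library. The size of the Cdk6 folds is therefore uncertain, most of all without WT replicate 3. The groups did not overlap for either gene. Both genes were named after their values were seen.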

How the data were processed

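RNA was sequenced from 7 libraries of sorted muscle eosinophils, 4 IL5-Tg and 3 WT by the genotype label. Per the labels' protocols, libraries were stranded mRNA preparations sequenced as paired short reads. The authors deposited unnormalized counts, 1 column per library, as whole numbers with differing totals show. The submitters' processing notes name bcl2fastq 2.20, Bowtie, STAR and mm10, while the program that counted, its annotation and its strand setting are not stated there. Of 2 rows naming no gene, reads with no feature took 9.15% to 18.2% and ambiguous reads 0.750% to 0.943% of each library, and both were left out.

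Genes were tested with the quasi-likelihood test of edgeR 4.0.16 (R 4.3.3), with TMM, filterByExpr, robust estimation and genotype as the only term, and p-values were adjusted by Benjamini-Hochberg over all 12428 tested genes. CPM use TMM-scaled totals of gene reads, and each standard error is the fold change divided by the root of its F value. The procedure was tested on simulated data. These held no library set apart as WT replicate 3 was and no raised low counts, so the simulation does not cover those traits. Alternatives were RLE and upper-quartile scaling, other filters, DESeq2 1.42.0, a marker covariate, division by the most common low count (the count from 1 to 30 held by most genes), a block for the shared number of titles, and leaving out each library. Replicate numbers follow accession order and only name libraries. No library repeated another, since chi-square per gene was 26 to 149 between replicates of a group. Gene positions and exon lengths are from GENCODE vM21 (mm10). The members and lists were chosen with earlier results of these data known. Fold changes were printed for the 2 members with the highest mean CPM of each of 8 roles, and for genes named as chosen after their values were seen.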

Additional observations from a re-analysis of the deposited data

Results flagged for a closer look

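In the IL5-Tg group, Mcm2 in replicate 2 was at 32.3 CPM, far from the other 3 libraries at 56.6, 55.6 and 55.5 CPM. It was the only one of 45 sets of 4 values (members, summed levels and the markers Col1a1 and C1qa) with such a gap, where chance flags about 1 in 20. The WT group, with 3 libraries, is too small for this check.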

How the results depend on the processing

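No member was called in either direction by any of the 15 alternatives, and with the mean CPM filter 27 of the 34 were tested. The count of all genes called, 51, was 224 by DESeq2, 104 with the marker covariate, 102 after division by the most common low count, and 16 to 97 with 1 library left out. The members' median log2 fold change of 0.61 was 0.19 to 1.29 with 1 library left out and -0.07 with the marker covariate. With that covariate the named genes Birc5, Cdc20, Cdk1, Mcm6, Plk1, Rrm2 and Ube2c turned to -0.20, -0.12, -0.25, -0.16, -0.20, -0.25 and -0.36. Leaving out 1 library gave -0.0037 to 0.97 for Birc5, -0.013 to 1.20 for Cdk1, -0.29 to 0.019 for Kif23, -0.052 to 0.76 for Mcm6, -0.19 to 0.14 for Pcna, -0.067 to 2.12 for Plk1, -0.0041 to 0.94 for Rrm2 and -0.082 to 0.90 for Ube2c. Pcna was at 0.0012 with upper-quartile scaling and 0.16 with the title block. The cause of these changes was not tested. The block for the leading number of the titles joined 2 pairs across the groups, whose deviations correlated at 0.159 and 0.0437. These were IL5-Tg replicate 3 with WT replicate 1 and IL5-Tg replicate 4 with WT replicate 2. IL5-Tg replicates 1 and 2 shared a number with each other only, and WT replicate 3 with no library. In that fit the genotype difference therefore rests on the 2 pairs alone. The fit gave 52 calls and a median of 0.42 for the members. The labels do not say that a shared number marks a shared animal or batch, so the libraries were not treated as paired.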

Other observations

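Inhibitors of cyclin-dependent kinases, the brakes of the same cycle, were also measured. Of 7 tested, 2 rose in IL5-Tg libraries and 0 fell, against 0.338% and 0.0724% of all tested genes. Cdkn2a was at 70.6, 71.2, 70.3 and 77.3 CPM in the IL5-Tg libraries, against 0.845, 3.06 and 0 CPM in the WT libraries (adjusted p = 0.0478 by edgeR). Cdkn2b, its neighbour in the genome and an inhibitor of Cdk4 and Cdk6, was at 15.6, 18.4, 22.0 and 15.3 CPM in the IL5-Tg libraries, against 0.784, 2.74 and 1.23 CPM in the WT libraries (adjusted p = 0.0224 by edgeR). The WT levels of both lay under 3 times the most common low count of each library, so the folds are lower bounds. Against the highest of these limits, 3.68 CPM, the IL5-Tg means were at least 19.7-fold higher for Cdkn2a and at least 4.84-fold higher for Cdkn2b. The groups did not overlap for either gene, and both were also called without WT replicate 3 (edgeR adjusted p = 0.000208 and 0.0108). Cdkn1a, the p53 target, was at 1243, 1323, 863 and 1138 CPM in the IL5-Tg libraries, against 547, 918 and 1284 CPM in the WT libraries and did not pass (edgeR adjusted p = 0.874).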
